A study of Homo sapiens with 2 samples.

Results

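Histone lysine demethylases remove methyl groups from lysines of the histone tails and so erase marks that methyltransferases have written. KDM1A, also called LSD1, oxidises the methyl group with a flavin cofactor, whereas the other members carry a JmjC domain, which needs oxygen, iron and 2-oxoglutarate. Low oxygen is known to induce several genes of the family through hypoxia-inducible factor (HIF), KDM3A and KDM4B among them. The transcripts of 10 of these enzymes, KDM1A, KDM2A, KDM2B, KDM3A, KDM4A, KDM4B, KDM4C, KDM5A, KDM5B and KDM6B, were compared between HT-29 spheroids and monolayer cells. The genes were taken by name, with every probe set that the annotation of the array assigns to them, and not by any measured value. They have 36 probe sets among the 54675 of the array, and they are 10 of the 19775 genes with a probe set of their own. None of their probe sets is shared with another named gene.

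HT-29 is a human colorectal adenocarcinoma line. The monolayer cells grew attached in DMEM/F-12 with 10% fetal bovine serum, and the spheroids grew from such cells on plates of low adhesion until day 5, in stem cell media that held B27, EGF and FGF and for which no serum is listed. Both cultures were unmodified cells of the same line, and growth form and medium differed together, so that their effects cannot be told apart. Total RNA was hybridised to Human Genome U133 Plus 2.0 arrays. The methods speak of duplicates, and 1 set of values for each culture was analysed here, called its array below, which may be a single array or pooled from duplicates. The measured quantity is the MAS5 signal, an intensity on a linear scale that both arrays share through a trimmed mean of 500.1. There is thus no replicate check, and no test could be run. As a scale for the differences, the log2 difference between spheroids and monolayer lay between -0.33 and 0.25 for the middle 50% of 13183 measured genes and between -0.85 and 0.79 from the 5th to the 95th percentile, with a median of -0.05 and 45.2% of the genes above 0. Probe sets of the same gene differed from each other with a pooled SD of 0.41, over 5506 genes. This is a spread between probe sets and not between cultures, and where the probe sets lie on their transcripts was not examined. A signal under 62.7, the median of all signals, was treated as not measurable and set to that floor. The epithelial genes EPCAM, CDH1, KRT8 and KRT18 were far above the floor on both arrays, KRT20 went from 99.6 to 218.4, VIL1 and CDX2 were above it on 1 array each and CDX1 on neither. Of 7 markers of other cell types, PTPRC, COL3A1 and CDH5 were under the floor on both arrays, COL1A2 was at 64.9 and 57.1, PECAM1 at 123.7 and 99.5, VIM at 463.2 and 201.9 and COL1A1 at 1370 and 1972, in monolayer and spheroids in that order. The summed signal of the 7 was 2142 and 2384, and the part of these genes in the differences below was not tested. In RNA of a whole culture, fewer cells with a transcript and less of it per cell cannot be told apart.

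The promoters of 3 members are shown. KDM3A and KDM4B, both known as hypoxia targets, differed from each other in signal, and KDM4C was the lowest by its brightest probe set. Whether the promoter matches bear on the signals was not tested. Each line holds the 250 bases before the start site from RefSeq (GRCh38.p14, plus strand, 5′ to 3′), at chr2:86441121-86441370 for KDM3A, chr19:4968863-4969112 for KDM4B and chr9:6757723-6757972 for KDM4C. Capitals mark ACGTG or GCGTG on either strand, the core of the hypoxia response element to which HIF binds.
KDM3A: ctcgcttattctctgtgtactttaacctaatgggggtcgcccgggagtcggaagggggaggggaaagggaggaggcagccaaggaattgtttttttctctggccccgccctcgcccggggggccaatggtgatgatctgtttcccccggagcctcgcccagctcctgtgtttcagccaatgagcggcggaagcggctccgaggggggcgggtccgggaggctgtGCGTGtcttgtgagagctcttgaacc
KDM4B: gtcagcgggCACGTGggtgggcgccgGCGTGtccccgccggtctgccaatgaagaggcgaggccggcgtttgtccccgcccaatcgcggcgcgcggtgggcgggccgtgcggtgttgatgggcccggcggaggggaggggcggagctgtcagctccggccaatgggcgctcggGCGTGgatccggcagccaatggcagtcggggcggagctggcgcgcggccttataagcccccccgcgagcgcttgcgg
KDM4C: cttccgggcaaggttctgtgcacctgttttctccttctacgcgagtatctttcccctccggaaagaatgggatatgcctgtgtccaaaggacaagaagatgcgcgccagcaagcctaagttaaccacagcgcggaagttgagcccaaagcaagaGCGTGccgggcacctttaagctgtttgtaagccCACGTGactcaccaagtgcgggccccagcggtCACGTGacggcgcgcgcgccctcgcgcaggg
KDM3A has 1 such match, 26 bases before the start site, and RefSeq lists a second start site of the gene downstream, whose window holds the same match. KDM4B has 4 matches, of which 2 overlap on opposite strands in CACGTG, a palindrome that basic helix-loop-helix proteins also bind. KDM4C has 5, with 2 copies of CACGTG at 63 and 31 bases before the start site. In windows of 300 bases, from 250 before to 50 after the start site, 14 of the 16 windows of the 10 members held a match, as did 48.4% of all 35116 windows and 61.3% of the 22039 windows within the range of GC content of the members. The share was 23 of 26 windows for other hypoxia-induced genes. A match is a run of letters and not a binding site, and windows of the same gene can overlap.

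As a family the 10 demethylases differed little between HT-29 spheroids and monolayer cells, and in both directions. By the brightest probe set of each gene all 10 were above the floor on both arrays, 4 were higher in spheroids and 6 lower, with a median log2 difference of -0.05, the same as over all measured genes. In 8 of the 10 the difference was under 0.5 in size, and in 7 under 0.25. KDM3A, which removes methyl groups from H3K9, was the highest at 0.70, and KDM4C, which acts on trimethylated H3K9 and H3K36, the lowest at -1.11. Of the members, 0 were at least 2-fold higher, where 2.53% of all measured genes were, and 1 was at least 2-fold lower, KDM4C, where 3.08% of all measured genes were. When the hybridisation spike-ins set the scale instead, all genes shift upward, their median to 0.18, and 8 of the 10 members then lie above 0. KDM1A, KDM2A, KDM4A and KDM4B are the 4 whose sign turned with it. Relative to the median of all genes, 5 members were above and 5 under on both scales. That split could hardly change, since the spike-in scale shifts all genes above the floor by the same amount.

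**Figure D1:**
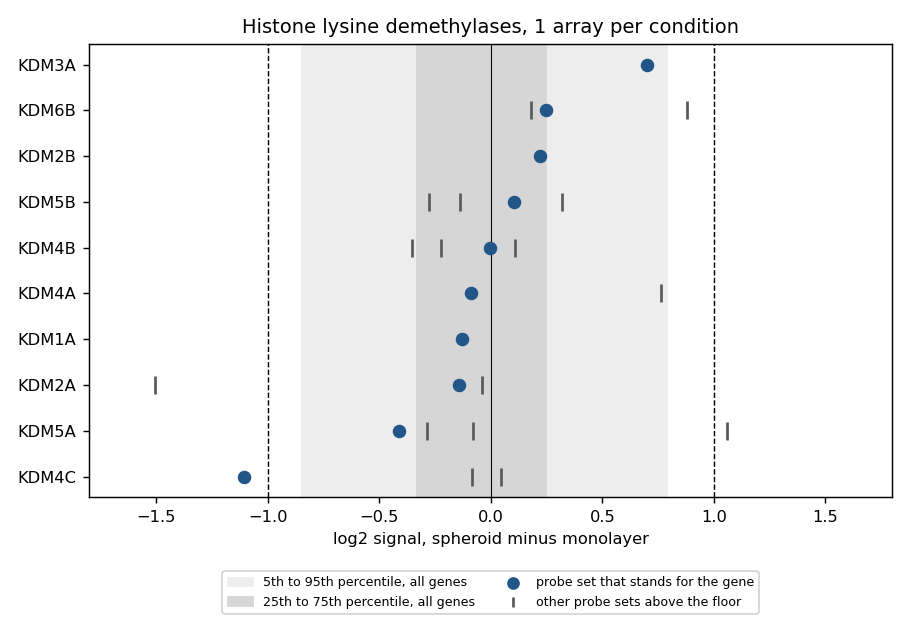
Signal of HT-29 spheroids relative to monolayer cells, as a log2 difference (x axis), for 10 histone lysine demethylases, with 1 array for each culture. A dot is the brightest probe set of a gene, a tick any further one that was above the floor, grey bands the spread of all measured genes, and the dashed lines mark 2-fold differences. KDM3A is highest at 0.70 and KDM4C lowest at -1.11, and single ticks of KDM2A (-1.51) and KDM5A (1.06) lie beyond the dashed lines.

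Among the enzymes of H3K9, KDM3A demethylates mono- and dimethylated lysine and acts as a coactivator of nuclear receptors. Its probe set 212689_s_at read 2991 in monolayer and 4866 in spheroids, so that it was 1.63-fold higher in spheroids. Of all measured genes 6.69% had a difference as high or higher. The other probe set of KDM3A, 242758_x_at, read 1.67 and 52.4, both under the floor, and gives no fold, so that the value of KDM3A rests on 1 probe set. KDM4A, KDM4B and KDM4C, a subfamily that removes trimethylation from H3K9 and H3K36, gave 3 different pictures. KDM4B read 1632 in monolayer and 1630.3 in spheroids by 212496_s_at, a difference of 0.00, and its 3 other probe sets above the floor were at 0.11, -0.22 and -0.35. A further KDM4B probe set, 216023_at, was above the floor in monolayer only, at 67.6, and 3 more were under it on both arrays. No measured probe set of KDM4B was as high as that of KDM3A.

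KDM4A depended on the probe set. By 203204_s_at it read 866.0 and 813.5, a difference of -0.09, and by 203205_at 346.9 and 589.4, a difference of 0.76. The first is slightly lower in spheroids and the second 1.70-fold higher, and KDM4A has no further probe set on the array. KDM4C, first described as an amplified gene in squamous carcinoma, read 881.4 in monolayer and 409.0 in spheroids by 209984_at and was 2.15-fold lower. Of all measured genes 2.15% had a difference as low or lower. Its other probe sets did not show this, since 244385_at read 174.5 and 180.3, a difference of 0.05, and 214861_at read 73.9 and 69.7, close to the floor, a difference of -0.08. The median over the probe sets of KDM4C was -0.08, and with the spike-in scale its brightest probe set was at -0.86, so that the gene was not past 2-fold under either setting.

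**Figure D2:**
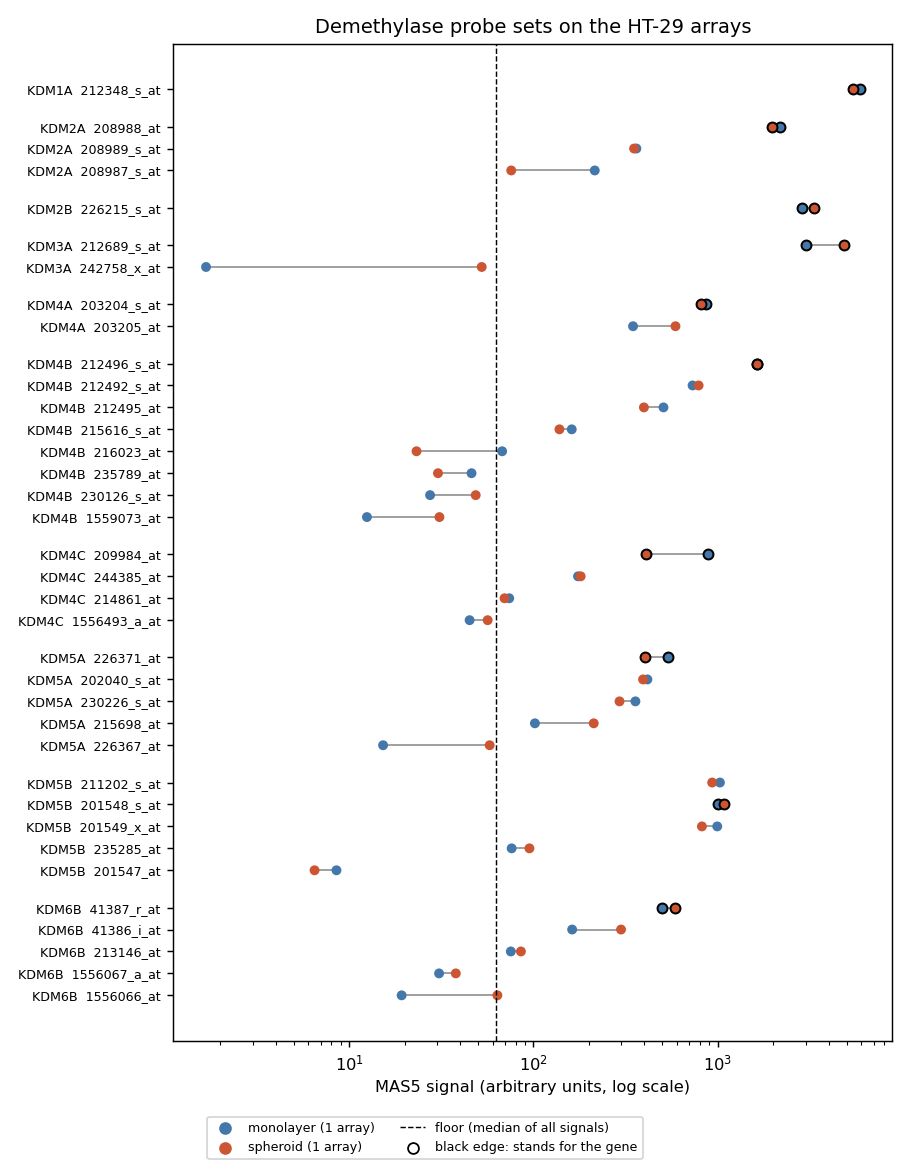
MAS5 signal (x axis, log scale) of the 36 probe sets of the 10 demethylases in HT-29 monolayer cells (blue) and spheroids (orange), 1 array each. Black edges mark the brightest probe set of each gene and the dashed line the floor of 62.7. Many pairs of dots nearly touch, the pair of KDM3A (212689_s_at) is apart with the spheroid dot to the right and that of KDM4C (209984_at) with the spheroid dot to the left, and 8 pairs lie under the floor.

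Among the enzymes of H3K4, KDM1A demethylates mono- and dimethylated lysine within the CoREST complex. It read 5890.3 in monolayer and 5386 in spheroids by its only probe set, a difference of -0.13. KDM5A and KDM5B, first found as a binding partner of the retinoblastoma protein and as a gene of breast cancer, remove trimethylation from H3K4. KDM5A read 539.4 and 405.1 by 226371_at, a difference of -0.41, and 202040_s_at and 230226_s_at were also lower in spheroids, at -0.08 and -0.29. Another measured probe set, 215698_at, went the other way, from 101.8 to 212.3, 2.08-fold higher. KDM5B read 1003 and 1078 by 201548_s_at, a difference of 0.10, and its 3 other probe sets above the floor were at 0.32, -0.14 and -0.28. The 4 measured probe sets of KDM5B were therefore divided evenly around 0. None of these H3K4 enzymes was past 2-fold by its brightest probe set.

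KDM2A and KDM2B demethylate H3K36 and bind CpG islands through a zinc finger of the CXXC type. KDM2A read 2167 in monolayer and 1966 in spheroids by 208988_at, a difference of -0.14, and 361.7 and 351.5 by 208989_s_at, a difference of -0.04. The remaining probe set, 208987_s_at, read 215.1 and 75.8 and was 2.84-fold lower in spheroids, with the spheroid signal near the floor. This was the largest difference among the measured probe sets of the family, and it was not seen in the other 2 of the gene. KDM2B, which brings a variant Polycomb complex to CpG islands, read 2862 and 3335 by its only probe set, a difference of 0.22. KDM6B, also called JMJD3, removes methyl groups from H3K27, the mark of Polycomb, and is known as a gene that inflammatory signals induce. It read 496.4 in monolayer and 589.4 in spheroids by 41387_r_at, a difference of 0.25. Its other probe sets above the floor were at 0.88, by 41386_i_at with 162.2 and 298.6, and at 0.18, by 213146_at with 75.4 and 85.5. All 3 were higher in spheroids, although 213146_at was close to the floor on both arrays. With a further probe set, 1556066_at, the spheroid signal of 63.7 was just above the floor and the monolayer signal of 19.3 under it.

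Over all probe sets of the members, 26 were above the floor on both arrays, 2 on 1 array and 8 on neither. Of the 26, 11 were higher in spheroids and 15 lower, with a median of -0.06, against -0.02 over all probe sets above the floor. At the level of probe sets, 1 was at least 2-fold higher (KDM5A, 215698_at), where 3.66% of all measured probe sets were, and 2 were at least 2-fold lower (KDM2A, 208987_s_at, and KDM4C, 209984_at), where 3.14% were. Probe sets of the same gene often disagreed. Of the 7 members with at least 2 measured probe sets, 3 had a range of at least 1 on the log2 scale, namely KDM2A (1.46), KDM5A (1.47) and KDM4C (1.15), and the share over all such genes was 15.0%. The median range was 0.85 for the 7 members and 0.45 over all such genes, whose number of probe sets is not matched to that of the members.

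To set KDM3A and KDM4B beside other hypoxia targets, 21 hypoxia-induced genes were examined. Of these, 18 were higher in spheroids and 3 lower, where 45.2% of all measured genes were higher. At least 2-fold higher were 7, where 2.53% of all measured genes were. Among the 18, BNIP3, EGLN1, HK2 and SLC2A1 also had a measured probe set under 0. ANKRD37 read 2289 in monolayer and 13627 in spheroids, ANGPTL4, a secreted inhibitor of lipoprotein lipase, 384.8 and 2127, ADM, the peptide hormone adrenomedullin, 5930 and 22946, and VEGFA, the angiogenic growth factor, 2622 and 6710. These 4 had log2 differences of 2.57, 2.47, 1.95 and 1.36, while INSIG2, DDIT4 and PDK1 were at 1.24, 1.23 and 1.02. By other probe sets ANGPTL4 was at 2.16 and PDK1 at 0.87, and VEGFA reached down to 0.56. By the brightest probe sets the 0.70 of KDM3A lay under these 7 and under HK2 and PFKFB4, at 0.88 and 0.89 (HK2 with another probe set at -0.18). It lay above the median of 0.34 of the list. With plain probe sets, which KDM3A lacks, the median of the 12 measured genes of the list was 0.68, and on the spike-in scale it was 0.59, with KDM3A at 0.95. The 0.00 of KDM4B lay under 18 of the 21. Among the glycolytic members of the list LDHA was at 0.13, PGK1 at -0.13 and ENO1 at -0.15, so that the list itself was uneven. None of the HIF subunit genes was past 2-fold by its brightest probe set. HIF1A, which is controlled mainly through the stability of its protein, was at 0.14, ARNT at 0.35, ARNT2 at -0.01 and EPAS1, the gene of HIF-2α, at -0.49, and HIF3A was under the floor by its brightest probe set. The 3 measured probe sets of ARNT ranged from -0.76 to 0.35. The median of the 4 subunits measured by the brightest probe set was 0.06. By the median of probe sets it was -0.32, over 5 subunits, since HIF3A then counted too.

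**Figure D3:**
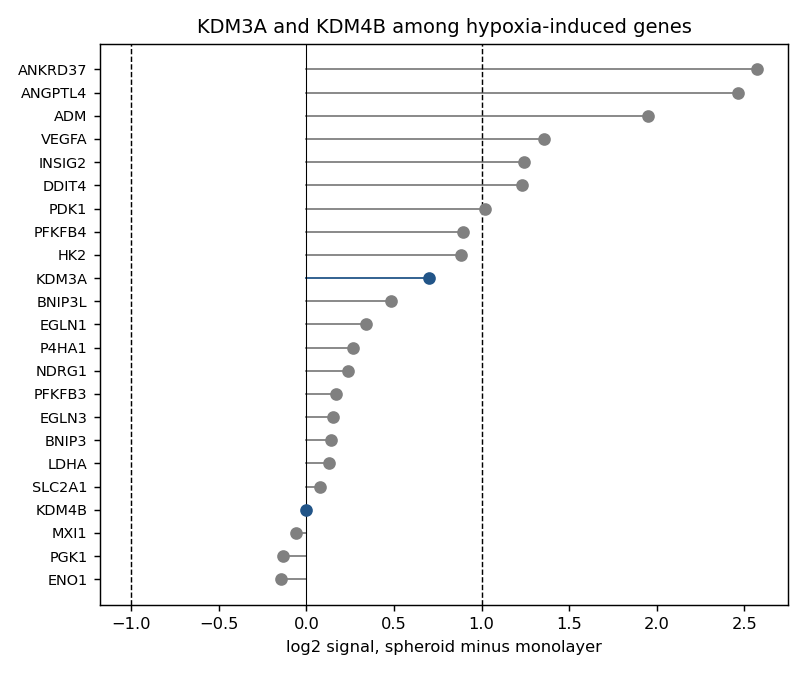
Signal of HT-29 spheroids relative to monolayer cells, as a log2 difference (x axis), for 21 hypoxia-induced genes (grey) with KDM3A and KDM4B (blue), by the brightest probe set and 1 array for each culture, with dashed lines at 2-fold. KDM3A, at 0.70, lies between HK2 (0.88) and BNIP3L (0.49), and KDM4B, at 0.00, between SLC2A1 (0.08) and MXI1 (-0.06).

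Other enzymes that demethylate histone lysines, or are held to do so, were similar to the 10 members in their range. All 14 were measured, 5 higher in spheroids and 9 lower, with 0 at least 2-fold higher, 0 at least 2-fold lower and a median of -0.07. RIOX1, a nucleolar JmjC protein, read 568.3 and 312.8, a difference of -0.86, and PHF8, which acts on H3K9 and H4K20, 353.6 and 229.7, a difference of -0.62. JMJD1C, a relative of KDM3A and KDM3B, was at 0.38, with all 4 of its measured probe sets higher in spheroids, at 0.25 to 0.86. PHF2 was at -0.34. In the subfamilies of the members, KDM3B, a paralog of KDM3A, read 3583 and 3354, a difference of -0.10, and so did not share the higher signal of KDM3A. KDM6A, the paralog of KDM6B, was at -0.05, KDM5C at -0.27, with 0.22 by its other measured probe set, and KDM1B at -0.26.

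Among the enzymes that write the marks which the members erase, and their subunits, none was past 2-fold by its brightest probe set on the deposited scale. Of all measured genes, 2.53% were at least 2-fold higher, 3.08% at least 2-fold lower and 45.2% higher by any amount. Of 9 measured genes of H3K4 methylation 4 were higher and 5 lower, with a median of -0.11 (0.05 with plain probe sets, those named _at with no further letter). The methyltransferases KMT2B and KMT2C were at 0.97 and 0.90, the shared subunit WDR5 at 0.74 and its partner RBBP5 at -0.42. The 4 measured probe sets of KMT2C were all higher, at 0.50 to 0.90. KDM5A and KDM5B, which remove trimethylation from H3K4, were at -0.41 and 0.10, KDM5A with another probe set at 1.06. Of 7 H3K9 methyltransferases 5 were higher and 2 lower, with a median of 0.01 (0.38 by the median of probe sets). The count says little, since SUV39H1 and SETDB1, among the 5, were at 0.01 each. EHMT2, counted as lower at -0.18, had another probe set at 0.95. PRDM2 was at 0.65, although its 3 measured probe sets ranged from -0.83 to 1.04, SETDB2 at 0.36, SUV39H2 at 0.23 and EHMT1, the partner of G9a, at -0.34.

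Among 9 genes of PRC2, which methylates H3K27, 4 were higher and 5 lower. The median was -0.10, but it was 0.26 by the median of probe sets and 0.27 with plain probe sets. JARID2, a JmjC protein without demethylase activity that guides PRC2, was lowest, with 1741 in monolayer and 888.7 in spheroids and differences of -0.97 and -0.89 by its 2 probe sets. The catalytic subunits EZH1 and EZH2 were at 0.70 and 0.55 and MTF2 at 0.51, and a second probe set of EZH1 was at -0.75. Of 6 measured H3K36 methyltransferases 5 were higher in spheroids, where 45.2% of all measured genes were. Their median was 0.33. NSD1 was at 0.55, SETD2, which makes the trimethylated form that KDM4 enzymes remove, at 0.43, SETMAR at 0.38 and NSD3 at 0.28, although SETMAR and NSD3 each had another probe set under 0, at -0.44 and -0.22. The 3 measured probe sets of SETD2 were all higher, at 0.42 to 0.75.

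**Figure D4:**
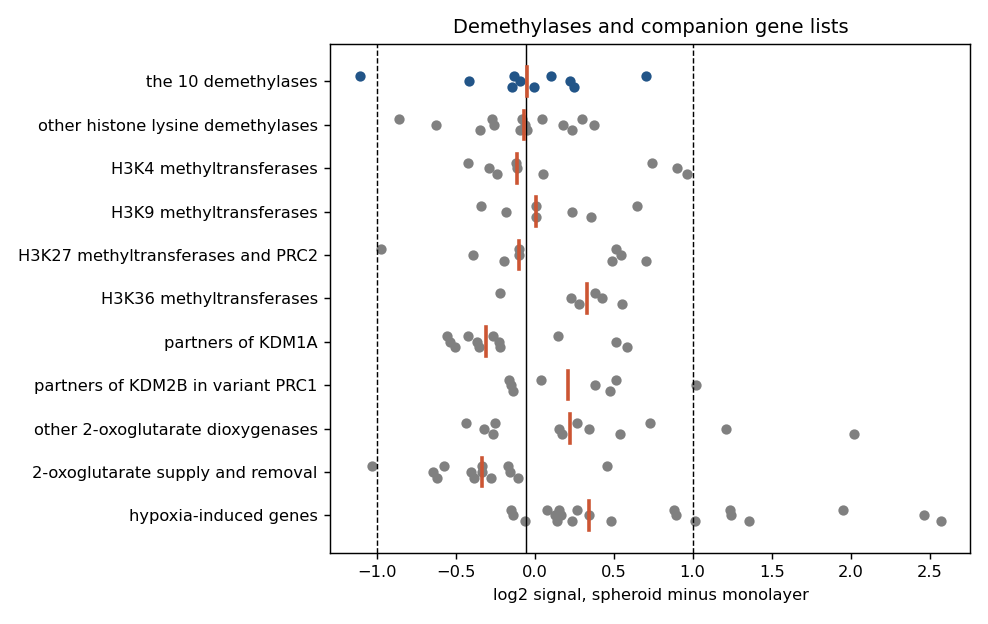
Signal of HT-29 spheroids relative to monolayer cells, as a log2 difference (x axis), for each measured gene by list, with 1 array for each culture. Blue dots are the 10 demethylases, grey dots the genes of the other lists, orange bars the medians, the solid line the median of all measured genes (-0.05) and dashed lines 2-fold differences. The bar of the demethylases (-0.05) lies on the solid line, that of hypoxia-induced genes (0.34) to its right and those of KDM1A partners (-0.31) and of 2-oxoglutarate supply (-0.33) to its left.

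Of 12 measured partners of KDM1A 9 were lower in spheroids and 3 higher, where 45.2% of all measured genes were higher. The median of these partners was -0.31. At least 2-fold lower were 0, where 3.08% of all measured genes were. HDAC1 and HDAC2, the deacetylases of CoREST, read 15966 and 11998 in monolayer and 11931 and 9987 in spheroids, differences of -0.42 and -0.26, and the scaffold RCOR1 was at -0.22. HMG20B, a subunit of the same complex, was at -0.56, whereas ZMYM2 and RCOR3 were at 0.59 and 0.52. SNAI1, a repressor that recruits the complex, was at -0.54, from 101.6 to 70.0, with the spheroid signal near the floor. With the spike-in scale the median of these partners was -0.06, under the 0.18 of all genes. Of 8 measured partners of KDM2B 5 were higher and 3 lower. At least 2-fold higher was 1, where 2.53% of all measured genes were. The median of these partners was 0.21. That median was 0.07 by the median of probe sets and with plain probe sets, and 0.04 with a floor at the 75th percentile of all signals. BCOR, a corepressor of the variant complex, was 2.03-fold higher, from 220.5 to 446.9, although its 3 probe sets ranged from 0.15 to 1.02, RYBP was at 0.52, PCGF1 at 0.47 and YAF2 at 0.38, the last with another probe set at -0.73.

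JmjC enzymes share their need for 2-oxoglutarate with other dioxygenases. Of 12 such genes measured, 8 were higher in spheroids and 4 lower, where 45.2% of all measured genes were higher. At least 2-fold higher were 2, where 2.53% of all measured genes were. The median was 0.22, and -0.01 by the median of probe sets. EGLN1, EGLN3 and P4HA1, all among the 8, are also on the list of hypoxia-induced genes above. Both 2-fold genes belonged to the TET enzymes, which oxidise 5-methylcytosine in DNA. TET1 read 97.6 in monolayer and 395.4 in spheroids, a difference of 2.02 with 1.93 by its second probe set, and TET2 395.4 and 914.8, a difference of 1.21 with 0.86 by its second. TET3 was at 0.54, with -0.19 by another probe set, and the collagen lysyl hydroxylase PLOD2 at 0.73. None of the 10 histone demethylases had a log2 difference as high as TET1 or TET2 by the brightest probe set.

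Genes that make or use up 2-oxoglutarate, or the succinate and fumarate that compete with it, were mostly lower. Of 13 measured genes 12 were lower in spheroids and 1 higher, where 45.2% of all measured genes were higher. At least 2-fold lower was 1, where 3.08% of all measured genes were. The median was -0.33, against -0.05 over all measured genes. SDHC, a subunit of succinate dehydrogenase, read 4553 and 2234, which is 2.04-fold lower, while its 7 measured probe sets reached up to 0.17. GOT1 was at -0.65 and IDH2, the mitochondrial isocitrate dehydrogenase, at -0.62, with -1.12 by its other probe set. OGDH was at -0.58, with 0.06 by its other probe set. IDH1, the cytosolic counterpart of IDH2 and a sterol-responsive gene, was the 1 gene that was higher, with 9666 and 13268 and a difference of 0.46. With the spike-in scale the median of this list was -0.09. These are transcript signals, and neither the metabolites nor the histone marks were measured on the arrays.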

How the data were processed

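Transcripts of HT-29 monolayer cells and spheroids were measured on Affymetrix U133 Plus 2.0 arrays; the methods speak of duplicates, and 1 set of values per condition was analysed here, from a single array or pooled. The authors deposited MAS5 signals, linear intensities per probe set scaled to a common trimmed mean, made per the submitters' processing notes with Affymetrix Expression Console, whose version is not given in the sources used here. MAS5 subtracts mismatch probes, so that dim signals are uncertain, and the number of arrays limits the precision.

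Gene names came from the platform annotation: 41097 of 54675 probe sets had 1 gene, 1801 several and 11777 were not listed, and 41043 matched RefSeq. Signals under the 50th percentile (62.7) were set to it. A gene was represented by its brightest probe set, the one whose log2 signal averaged highest over both arrays, and differences are log2 spheroid minus log2 monolayer signal, with a threshold of 2-fold. A gene was measured if above the floor on 1 or both arrays. Alternatives changed the scaling, the floor and the choice of probe set. No test was run. Python 3.11.15, numpy 2.4.6, pandas 2.3.3 and matplotlib 3.10.9 were used, and the computation was tested on simulated data. The members and the lists were chosen with earlier results of these data known. All 10 members were named, and of each list the 4 genes with the largest absolute difference and any past 2-fold; other genes were named after their values were seen. Some genes of the lists are not analysed here.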

Additional observations from a re-analysis of the deposited data

How the results depend on the processing

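With 1 array per condition, no difference could be set against the spread between cultures, and signals near the floor give no dependable fold. No paired analysis was possible because each condition has 1 array. Of 67 values of single members under 7 alternatives, 64 moved by less than 0.41, the pooled SD between probe sets of a gene. For most settings this was fixed in advance. The brightest probe sets of the members, at 405.1 or more, were all above the higher floor of 386.0, so that the floor settings could not move them. Scaling by the median or the spike-ins shifts all members by the same amount, under 0.41. The count is therefore no measure of stability. KDM3A was the highest member and KDM4C the lowest, except that KDM4A was highest (0.76) with plain _at probe sets, which KDM1A, KDM2B and KDM3A lack, and KDM5A was lowest (-0.18) by the median over probe sets. The call of KDM4C was lost in 2 settings: 0 members were past 2-fold, and 0 lower, with spike-in scaling, where KDM4C was at -0.86, and likewise 0 and 0 by the median over probe sets, where it was at -0.08. Spike-in scaling also gave medians of 0.20 for the members and 0.18 for all genes, and 700 genes higher and 189 lower, so that 78.7% of those past 2-fold were higher, against 45.1% of 740 as reported. That share was 34.0% with the arrays scaled to the same median. Without a floor 4978 genes were past 2-fold, 2476 higher and 2502 lower. With a floor at the 75th percentile 174 were, 100 higher and 74 lower, or 57.5% higher. The cause of these differences was not tested.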
